A study of Mus musculus with 12 samples.

Results

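MicroRNAs in the epididymal fat of adult male mice were compared between pools whose mice had met a high-fat diet during lactation and pools whose mice had not. Of the 12 pools of RNA in the study, 6 stood on each side, and all 12 entered the comparison. The mice were C57BL/6J wild type, and their parents ate a breeding diet until mating. The high-fat diet took 45% of its energy from fat and the matched control diet 10%. On the control side, CD mice ate the control diet throughout, and UT mice met the high-fat diet in utero alone, through the dam. On the high-fat side, UL mice met it from mating to weaning and then ate the control diet, and WL mice met it from mating until the fat pads were taken at 23 weeks. Each group was represented by 3 pools made from 12 mice. The study held 17 to 21 litters a group, and the labels do not say which litters entered a pool, so the tests below measure the spread between pools.

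The sides differ in more than lactation. In utero exposure was present in 6 of 6 pools on the high-fat side and 3 of 6 on the control side, and the high-fat diet after weaning in 3 of 6 against 0 of 6. Over the 12 pools the diet of the lactation period therefore cannot be told apart from these periods. UL and UT are the only groups that differ in the diet of lactation alone.

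MicroRNAs are short RNAs that guide Argonaute proteins to messenger RNAs, mostly through base pairing of their seed, bases 2 to 8, and lower the output of those messages. In fat they take part in the choice of precursor cells to become adipocytes and in lipid storage, thermogenesis and inflammation. The epididymal pad of the mouse forms largely after birth, and milk itself carries microRNAs, although whether these reach the tissues of the pup is debated.

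The values are threshold cycles (Ct) of quantitative RT-PCR, where an earlier cycle stands for more template. The level of a microRNA in a pool is found by subtracting its Ct from the average Ct of that pool, taken over the 466 microRNAs with a value in 12 of 12 pools. It is a log2 scale if every cycle doubles the product, and a level above 0 marks an assay that crossed the threshold before the pool's average. A difference is the mean of the UL and WL group means minus the mean of the CD and UT group means. The mature sequences below belong to the microRNAs on which the comparison turned, with some that share a seed or a hairpin with them; seed bases are in capitals. They are RefSeq sequences of build GRCm38.p6, in which 393 of the 504 microRNA assays found an entry by name.

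miR-291b-5p: gAUCAAAGuggaggcccucucc
miR-135b-3p: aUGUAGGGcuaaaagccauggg
miR-20b-5p: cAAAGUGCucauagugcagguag
miR-17-5p: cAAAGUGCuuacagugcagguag
miR-98-5p: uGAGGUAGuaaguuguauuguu
let-7a-5p: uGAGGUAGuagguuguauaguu
miR-494-5p: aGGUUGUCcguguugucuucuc
miR-494-3p: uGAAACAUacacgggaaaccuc
miR-692: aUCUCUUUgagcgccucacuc

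MiR-291b-5p lies at chr7:3219494-3219515 on the plus strand, in the cluster of miR-290 to miR-295 that marks embryonic stem cells. MiR-135b-3p lies at chr1:132198142-132198163 (plus). MiR-20b-5p lies at chrX:52742159-52742181 (minus), in an X-linked paralog of the miR-17/92a cluster, and shares the seed AAAGUGC with miR-17-5p. MiR-98-5p lies at chrX:151913229-151913250 (plus) and carries the let-7 seed GAGGUAG. The miR-494 arms lie at chr12:109715334-109715355 and chr12:109715367-109715388 (both plus), in the imprinted Dlk1-Dio3 region. The table names 1 assay miR-494 without an arm, beside an assay for miR-494-5p. MiR-692 has 3 RefSeq copies, at chr4:125504805-125504825 (plus), chr13:74407121-74407141 (plus) and chr17:6895259-6895279 (minus).

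Before the comparison the pools were looked at side by side. Between 492 and 506 of 506 assays gave a Ct in a pool, and the median Ct of a pool lay between 24.62 and 25.29. WL3 and UT2 had the widest spread around their group means (SD 0.97 and 0.85 cycles, against 0.39 to 0.80 in the other 10 pools). In UT1 to UT3 and in WL3, miR-592-3p and miR-758-5p lay near each other's levels in the other pools, and so did miR-676-3p and miR-676-5p; results that involve them are also given without WL3. The tissue was checked against its microRNAs. The mean level of 14 adipose-enriched microRNAs lay at 3.08 to 3.87 in every pool, and that of 4 liver microRNAs at -2.02 to -0.91. Stromal and smooth muscle microRNAs (4.70 to 5.62) and erythroid ones (4.07 to 5.09) lay higher, and endothelial ones (3.13 to 4.75) overlapped the adipose-enriched range. The check thus sets the pools apart from liver and does not single out fat. U6-snRNA, a small nuclear RNA, lay at 9.45 ± 0.34 on the high-fat side and 9.57 ± 0.12 on the control side (SD, n = 5 each, 1 pool missing a value on each side; exact permutation p = 0.611). RNU-43, a small nucleolar RNA, lay at 7.29 ± 0.34 and 7.11 ± 0.49 (SD, n = 6 each; exact permutation p = 0.491). Scaled to RNU-43, the median difference of all microRNAs moved from -0.07 to -0.25, so every difference here is one relative to the average microRNA.

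In the comparison of the sides 2 of 504 microRNAs passed the threshold, an adjusted p under 0.05 in limma, and both were higher on the high-fat side (0.397% of those tested). The stem cell microRNA miR-291b-5p differed by 4.34 cycles (SE 0.39, limma adjusted p = 0.00357). For miR-135b-3p, whose hairpin also gives miR-135b-5p, the difference was 2.55 cycles (SE 0.32, limma adjusted p = 0.00438). No microRNA passed in the lower direction, and at an unadjusted p under 0.05 limma listed 42 (8.33%), 22 higher (4.37%) and 20 lower (3.97%). The median SE of a difference was 0.31, which the number of pools limits.

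Both calls rested on single CD pools with a very late Ct. MiR-291b-5p gave a value in CD1, at -11.12 (Ct 35.92), and in UT3, at -3.28 (Ct 28.34), and no Ct in CD2, CD3, UT1 or UT2. On the high-fat side it was measured in 6 of 6 pools, at -3.01, -2.78 and -2.66 in UL1 to UL3 and at -2.34, -2.85 and -3.51 in WL1 to WL3. UT3, the only other control value, lay inside the range of the high-fat pools, so the sides overlap. Of the control pools only UT3 had a Ct under 35, so the assay met the filter (Ct under 35 in at least 3 pools) through the high-fat side.

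MiR-135b-3p gave no Ct in CD1 and CD2 and lay at -11.80 in CD3 (Ct 36.69). It lay at -7.48, -7.63 and -7.66 in UT1 to UT3, at -7.30, -7.49 and -7.90 in UL1 to UL3, and at -6.37, -7.45 and -6.37 in WL1 to WL3. The UT and UL pools stood together, and CD3 alone stood far below. UL minus UT was 0.46 for miR-291b-5p and 0.03 for miR-135b-3p (limma adjusted p = 0.944 and 0.988). In these fits the lone CD pool, and for miR-291b-5p the lone UT pool, is assumed to vary as the other groups do. Without CD1 miR-291b-5p could not be fitted, nor miR-135b-3p without CD3, since CD then held no value; miR-291b-5p could not be fitted without UT3 either. With each side fitted as 1 group, 0 microRNAs passed in limma and 25 had an unadjusted p under 0.05; the difference of miR-291b-5p was 4.34 (limma adjusted p = 0.79) and that of miR-135b-3p 1.50 (adjusted p = 0.824).

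**Figure D1:**
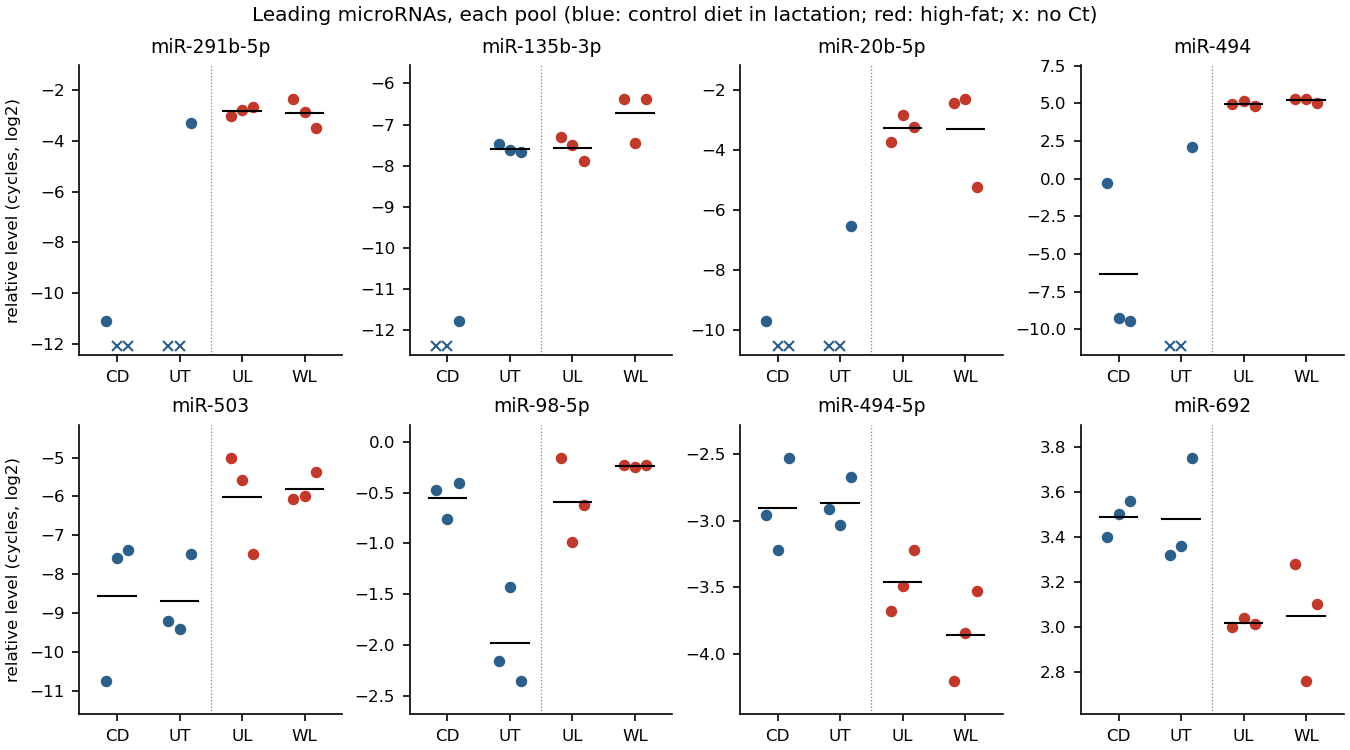
Relative level (cycles, log2 scale) of 8 microRNAs in each of 3 pools of CD, UT, UL and WL; points are pools, lines are group means where more than 1 pool has a value, and crosses at the bottom are pools without a Ct. MiR-291b-5p and miR-135b-3p have 1 CD value each, at -11.12 and -11.80. For miR-494-5p and miR-692 every high-fat pool lies below every control pool, by a narrow margin and under the scaling used here.

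Next in order of p came microRNAs that did not pass. MiR-20b-5p, whose relatives promote proliferation, lay at -9.73 in CD1 and -6.53 in UT3 and gave no Ct in the other 4 control pools. It met the filter only through the high-fat side, and its sides compare 6 values with 2. The fit of miR-20b-5p rests on these lone CD and UT values and could not be made without either. In the 6 high-fat pools its lowest, median and highest levels were -5.23, -3.04 and -2.29. The sides did not overlap, and the difference was 4.84 (SE 0.79, limma adjusted p = 0.064). The 5 measured microRNAs with its seed had differences of -0.09 to 0.65, the highest for miR-93-5p (limma unadjusted p = 0.0393).

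MiR-494 came far earlier in the high-fat pools. Its Ct was 20.00, 19.82 and 20.04 in UL1 to UL3 and 19.62, 19.60 and 19.94 in WL1 to WL3. In the control pools it was 25.11 in CD1, 34.04 in CD2, 34.37 in CD3 and 22.99 in UT3, and no Ct was given in UT1 and UT2. High-fat pools lay within 1 cycle of each other, control pools spread over many, and the sides did not overlap. The difference of 7.23 (SE 1.73) did not pass (limma adjusted p = 0.215); without CD1 it was 8.74 and passed (limma adjusted p = 1.92e-07), and without any other pool the adjusted p lay at 0.135 or more where it could be fitted. The assay for miR-494-5p, from the same hairpin, had the opposite sign. The levels of miR-494-5p were -4.20, -3.60 and -3.22 (lowest, median, highest) on the high-fat side and -3.22, -2.94 and -2.53 on the control side, a difference of -0.77 (SE 0.21, limma adjusted p = 0.246).

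MiR-503, of the X-linked cluster with miR-322 and miR-351 that restrains the cell cycle, was measured in all pools. It lay at -10.74, -7.59 and -7.39 in CD1 to CD3, -9.21, -9.42 and -7.47 in UT1 to UT3, -5.01, -5.59 and -7.48 in UL1 to UL3, and -6.07, -6.00 and -5.36 in WL1 to WL3. Only UL3 reached down into the control range. Its assay ran late, with a mean Ct that was not under 30, so it was left out of the setting limited to such assays. The difference was 2.72 (SE 0.64, limma adjusted p = 0.16; exact permutation p = 0.00649, adjusted p = 0.756 over the 466 microRNAs measured in all pools). Of its cluster mates miR-351-5p had 0.92 (SE 0.34, limma adjusted p = 0.575), miR-322-5p 0.39 and miR-322-3p 0.13, and without WL3 miR-351-5p had 1.25 and passed (limma adjusted p = 0.00519).

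MiR-98-5p, a let-7 family member, had a difference of 0.85 (SE 0.23, limma adjusted p = 0.246). UT1 to UT3 lay at -2.16, -1.43 and -2.35, below each of the other 9 pools, which lay at -0.99 to -0.16. Its level in CD was thus within the range of the high-fat pools, UL minus CD was -0.04, and UL minus UT 1.39 (limma adjusted p = 0.124). The 8 let-7 guide strands with the same seed had differences of -0.18 (let-7c-5p) to 0.39 (let-7e-5p), and their unadjusted p in limma was 0.18 or more.

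Of the microRNAs further down that were higher on the high-fat side, miR-484 had 0.70 (SE 0.20), miR-483, from an intron of Igf2 and known as nutritionally programmed in fat, 0.75 (SE 0.23), and miR-378a-3p, from the gene of the coactivator Ppargc1b, 0.67 (SE 0.25). The lowest, median and highest levels of miR-483 were 0.56, 1.36 and 1.89 on the high-fat side and 0.23, 0.44 and 0.86 on the control side. The sides overlapped through UL2 and UL3, at 0.56 and 0.63, and UT2, at 0.86. For miR-484, miR-483 and miR-378a-3p, WL minus UL was 0.66, 0.62 and 0.83, and UL minus UT was 0.05, 0.31 and -0.14. They stand close together in the order of accession numbers, at places 227 to 232, where the 8 neighbouring assays of each had median differences of 0.38 to 0.58. With the deviations of those neighbours subtracted, their differences were 0.31, 0.55 and 0.18. MiR-484 counts among the neighbours of both others, and both count among its own. MiR-17-3p, the opposite arm of miR-17-5p, had 0.89 (SE 0.30) and epithelial miR-200a-3p 1.48 (SE 0.54). The limma adjusted p of these 5 lay at 0.264 to 0.575.

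Lower on the high-fat side were miR-133a-5p (-0.78, SE 0.21), miR-339-5p (-0.66, SE 0.22), miR-346-5p (-0.56, SE 0.21), miR-694 (-1.32, SE 0.48), miR-702-3p (-1.15, SE 0.42), miR-216b-3p (-1.79, SE 0.68) and miR-365-2-5p (-0.92, SE 0.37). Both assays of miR-471, an X-linked microRNA of male germ cells, were on the same side, at -1.42 (SE 0.53) for miR-471 and -1.13 (SE 0.46) for miR-471-3p. The limma adjusted p of these 9 lay at 0.246 to 0.59. In the order of accession numbers, the median differences of their neighbouring assays ran from -0.46 (miR-694) to 0.20 (miR-346-5p). Assays at places 142 to 149, which include miR-339-5p and miR-346-5p, lay at -0.82 to -0.24. With the deviations of accession neighbours subtracted, miR-133a-5p had -0.37 and miR-339-5p -0.38. MiR-694 illustrates an uneven side: WL1 and WL2 lay at -3.90 and -4.75, whereas the other 10 pools lay at -1.90 to -0.52. MiR-676-3p (-1.44, SE 0.56) and miR-184-5p (-0.76, SE 0.30; limma adjusted p = 0.59 each) had UL minus UT of -4.19 and -2.02, and WL minus CD of 1.32 and 0.49. With the 2 pairs of assays exchanged back, the difference of miR-676-3p was -0.25, and with accession neighbours subtracted that of miR-184-5p was 0.00. The partner miR-676-5p had 1.12, and WL3 held opposite levels of the pair to the other high-fat pools.

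All 6 high-fat pools lay on one side of all 6 control pools for 2 of the 466 microRNAs measured in every pool (0.429%), and both were lower on the high-fat side. They were miR-494-5p, given above, and miR-692, whose levels were 2.76, 3.03 and 3.28 (lowest, median, highest) on the high-fat side and 3.32, 3.45 and 3.75 on the control side. The sides nearly touched. For miR-494-5p the highest high-fat and the lowest control level were both -3.22 at 2 decimals, and for miR-692 they were 3.28 and 3.32. The difference of miR-692 was -0.45 (SE 0.19, limma adjusted p = 0.59), with -0.46 for UL minus UT and -0.44 for WL minus CD. Each had an exact two-sided permutation p of 0.00216, the smallest that the 924 splits can give, and an adjusted p of 0.504. Full separation of 6 against 6 pools fixes this p, so it adds nothing to the separation by which they were picked. By the exact permutation test 0 of 466 microRNAs passed after adjustment, and 30 had a p under 0.05 (6.44%), 11 higher and 19 lower. With the deviations of neighbouring assays subtracted, the difference of miR-692 was 0.02 in the order of the table and 0.00 in that of accession numbers, where its neighbours had a median difference of -0.47. The separation also depended on the scaling: 1 microRNA was left under median or quantile scaling, and 0 with RNU-43 or with the authors' deposited normalized values.

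The sides can be set against each other through pairs of group differences that use every pool once and share none. Across the 466 microRNAs, UL minus CD and WL minus UT had the same sign in 42.9% (Pearson r = -0.02, Spearman rho = -0.13). UL minus UT and WL minus CD had it in 53.0% (r = -0.12, rho = -0.01). Without WL3 the shares were 44.2% and 56.7% and r was 0.06 and 0.04. These are descriptions across genes, which are not independent replicates, of pools with unlike spread. Beyond 1 cycle in the same direction in both differences were miR-503 and miR-216b-3p in the first pair, and miR-503, miR-219a-5p, miR-466k and miR-471-3p in the second. Only miR-503 was in both, with 2.55 and 2.89 in the first and 2.67 and 2.76 in the second. Both pairs use the same 12 pools and add up to the same total, so a place in both is not a second observation. MiR-219a-5p and miR-466k are named here because they met this criterion, after their values were seen. For each of them WL3 stood far above the other high-fat pools, at -0.05 against -5.36 to -3.86 for miR-219a-5p and at 4.31 against -1.84 to -0.55 for miR-466k.

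**Figure D2:**
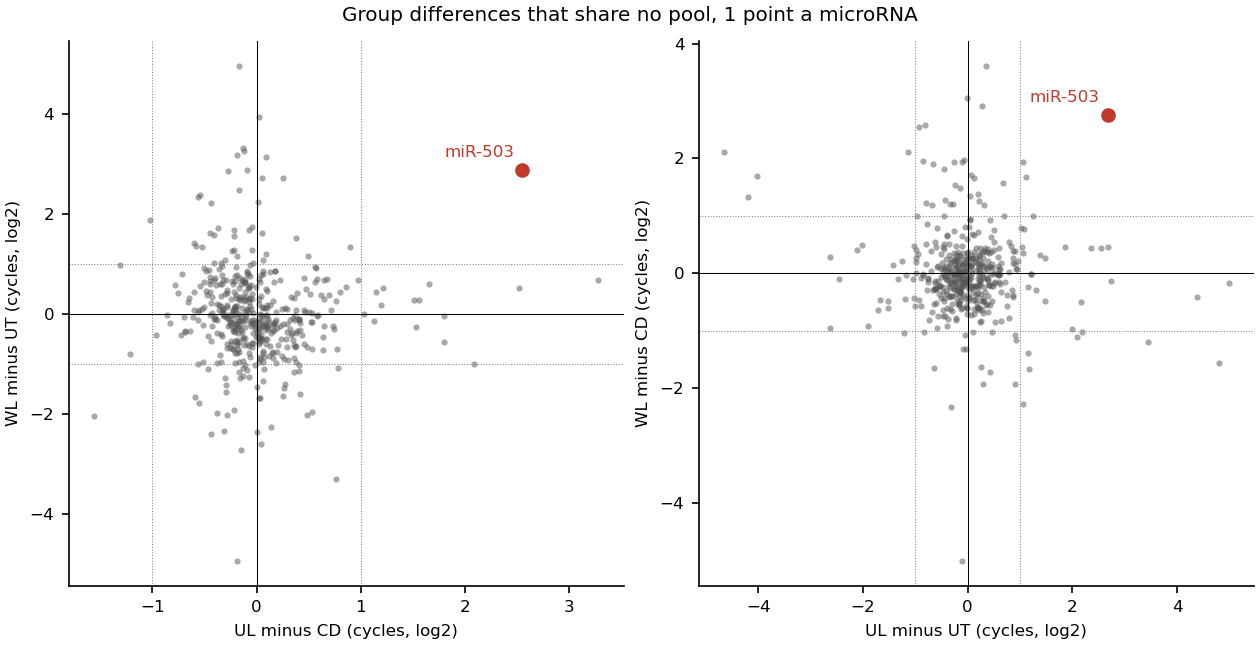
Each point is 1 of 466 microRNAs measured in all 12 pools; the axes are differences of group means in cycles on the log2 scale, and the dotted lines lie at 1 and -1. The clouds show no common slope (r = -0.02 on the left and -0.12 on the right), and miR-503, in red, lies above 1 on all 4 axes.

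In UL against UT, which differ in the diet of lactation alone, 0 of 504 microRNAs passed in limma, and 40 had an unadjusted p under 0.05 (7.94%), 19 higher (3.77%) and 21 lower (4.17%). The median SE was 0.44. The smallest adjusted p, 0.0607, was shared by miR-676-3p (-4.19, SE 0.79), miR-363-5p (-4.02, SE 0.77) and miR-758-5p (4.80, SE 0.96), followed by miR-184-5p (-2.02, SE 0.43, limma adjusted p = 0.0732). For these 4, UT minus CD was 4.04, 3.47, -4.71 and 2.50, each opposite in sign to UL minus UT. The UT pools enter both differences with opposite sign, so values extreme in UT give opposite signs by construction. Of the 2 pairs of assays that looked exchanged in UT, miR-592-3p had -4.65 and miR-676-5p 3.45 in this comparison. WL3 enters this comparison only through the shared estimate of spread. Without it 8 microRNAs passed, 4 higher and 4 lower, of which 4 belonged to the 2 pairs; with the pairs exchanged back and WL3 left out, 1 passed, miR-184-5p (-2.02, SE 0.32, limma adjusted p = 0.037). MiR-363-5p and miR-758-5p are named for their rank in this comparison, after their values were seen.

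WL3 also bore on the comparison of the sides. Without it 10 microRNAs passed in limma, 7 higher and 3 lower. Beside miR-291b-5p (4.49) and miR-135b-3p (2.46) these were miR-20b-5p (5.31), miR-17-3p (1.13), miR-351-5p (1.25), miR-676-5p (1.79) and miR-758-5p (2.36) above 0, and miR-694 (-1.81), miR-676-3p (-1.99) and miR-592-3p (-2.16) below. With the 2 pairs of assays also exchanged back, 5 passed: miR-291b-5p, miR-135b-3p, miR-20b-5p, miR-351-5p and miR-694. WL3 lay at -2.13 for miR-351-5p, below the control pools (-1.63 to -0.77), while the other 5 high-fat pools lay at -0.28 to 0.17. For miR-17-3p it lay at -2.59, within the control range of -2.76 to -1.38, against -1.26 to -0.72 in the other high-fat pools. No such split between WL3 and its side was seen for miR-503, at -5.36 in WL3. Without WL3 the fit of miR-20b-5p still rested on the lone CD1 and UT3 values. In the order of accession numbers, the neighbours of miR-17-3p and of miR-351-5p each had a median difference of 0.57 over all pools.

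A missing Ct cannot enter a difference, so missing values were counted. The microRNA assays had 55 in all, 37 on the control side and 18 on the high-fat side (exact permutation p = 0.208 over pools). By pool they ran from 0 in UL1 to 14 in UT2, with 9 in WL3. Of the 38 assays concerned, 20 lacked values on the control side alone, 14 on the high-fat side alone and 4 on both. Many stood together in the order of accession numbers. Each assay at places 413 to 420 lacked 1 high-fat value, and each at places 395 to 398, 401 and 402 lacked 1 control value. In 8 assays 2 or more control pools and no high-fat pool lacked a value, and in 0 assays was it the other way round. The 8 were miR-291b-5p, miR-20b-5p (4 control pools each), miR-690 (3), and miR-494, miR-135b-3p, miR-302b-3p, miR-206-5p and miR-701-5p (2 each), named here for this count. MiR-690 lay at 8.36 to 9.80 in the high-fat pools and 8.80 to 9.57 in the control pools with a value. A missing Ct was thus not limited to assays of low level, and its causes were not tested.

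Each microRNA was also placed by its accession number. In the resulting order of 500 assays, miR-494, miR-20b-5p, miR-503 and miR-291b-5p held places 242 to 245. For each of them the median difference of the 4 assays before and the 4 after it was 1.18 to 1.47. The neighbours of each included the other members of this run, whose high values thus entered this median and the subtraction below. Around them, every assay at places 225 to 255 had a difference above 0, against 42.9% of all microRNAs. These places also held miR-483, miR-484, miR-378a-3p and miR-302d-3p. Adjacent assays differed by a median of 0.29 in the order of accession numbers and 0.34 in the order of the table. MiR-135b-3p, at place 436, had neighbours with a median of -0.05. With the median deviation of these neighbours subtracted, a setting chosen after seeing the data, the difference was 2.84 for miR-291b-5p and 2.64 for miR-135b-3p (limma adjusted p = 0.0206 each), and miR-503 was left with 1.56 (limma adjusted p = 0.605). What this order stands for in the PCR is not stated in the labels or headers used here, and its part in the result was not tested.

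**Figure D3:**
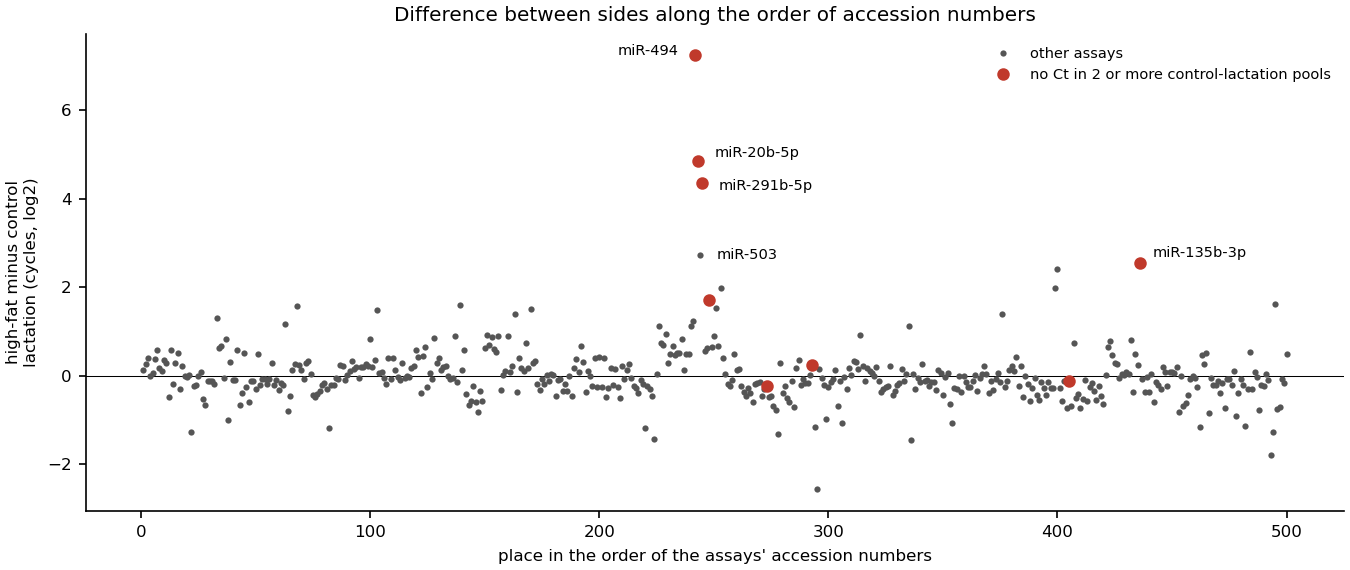
Difference between the sides (high-fat minus control lactation, cycles, log2 scale) of 500 microRNA assays along the order of their accession numbers; red points lacked a Ct in 2 or more control pools. The 4 highest points, miR-494, miR-20b-5p, miR-291b-5p and miR-503, hold adjacent places, 242 to 245. They lie within places 225 to 255, where every difference is above 0.

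Among the groups of related microRNAs, the stem cell clusters held 1 of the 2 calls. Of 17 measured members of the clusters of miR-290 to miR-295 and miR-302 to miR-367, 8 lay above 0 and the median was -0.10, against -0.07 over all microRNAs (216 of 504, 42.9%, above 0). Limma called 1 higher and 0 lower, where it called 0.397% of all microRNAs. An unadjusted p under 0.05 was listed for 4 of the 17, against 8.33% of all. Beside miR-291b-5p the 4 were miR-302d-3p (1.52), miR-295-3p (-1.17) and miR-290a-5p (-0.44), with differences of both signs. The sign followed the order of accession numbers. The 8 members above 0 stood at places 241 to 251, and those below 0 at places 75 to 89. The part of this order in the differences of the clusters was not tested. MiR-291a-5p, which shares the seed of miR-291b-5p, had -0.48 (SE 0.34), and the opposite arm miR-291b-3p had 0.55 (SE 0.44). Apart from miR-291a-5p, the mean level of each member lay below 0, later than the average microRNA.

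Of the 23 lists, 18 had a median above that of all microRNAs, among them the leukocyte, erythroid and muscle lists. The lists tied to fat held 0 calls. Limma called 0.397% of all microRNAs, so a count of 0 in lists of this size is no result about them. For the 14 measured adipose-enriched microRNAs the median was 0.28 and 11 lay above 0. At an unadjusted p under 0.05 limma listed 2 of this list higher and 0 lower, against 4.37% and 3.97% of all. Its members with the highest levels were miR-26a-5p (-0.03, SE 0.29), miR-30c-5p (0.26, SE 0.23) and miR-26b-5p (0.18, SE 0.32), which promote or mark adipocyte differentiation. The highest differences were those of miR-107-3p (0.87), miR-148a-3p (0.84) and miR-378a-3p (0.67). In the order of accession numbers miR-107-3p stood among assays with differences of 0.54 to 0.92, at places 150 to 156. MiR-378a-3p had 0.18 with its neighbours subtracted. The assays beside miR-148a-3p had 0.22 and 0.19. The mean level of the list lay at 3.35 to 3.87 in the high-fat pools and 3.08 to 3.47 in the control pools. Only WL3 and UL3 reached into the control range. The pro-adipogenic list had a median of 0.27 (17 of 25 above 0) and shared 7 of its 25 members with the 14 of the adipose-enriched list, and the anti-adipogenic list had -0.04 (10 of 22). In bulk tissue fewer cells of a type and less RNA per cell cannot be told apart.

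MicroRNAs abundant in milk had a median of 0.24, with 22 of 32 above 0 and 0 called. At an unadjusted p under 0.05 limma listed 4 of the 32 higher and 0 lower, against 4.37% and 3.97% of all microRNAs. MiR-148a-3p, the leading microRNA of milk, lay at 4.46, 5.69 and 7.16 (lowest, median, highest) on the high-fat side and 4.31, 4.83 and 5.54 on the control side. Its difference of 0.84 (SE 0.36) did not pass (limma adjusted p = 0.59), and the sides overlapped. Of the members with the highest levels, let-7b-5p lay at -0.04 (SE 0.27), let-7c-5p at -0.18 (SE 0.21) and miR-21a-5p at 0.28 (SE 0.31). The 4 members with the highest differences were of the miR-200 family, miR-200a-3p, miR-200c-3p (1.40), miR-141-3p (1.30) and miR-200b-3p (1.16), which keep cells epithelial.

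The lists raised and lowered in obese mouse fat had medians of the same sign, 0.28 (11 of 16 above 0) and 0.27 (16 of 20), with 0 called in each. In the first, the difference of miR-146a-5p, which dampens Toll-like receptor signalling, was 0.83 (SE 0.61). WL3 alone stood high, at 7.15, and the other 5 high-fat pools, at 3.23 to 4.00, lay within the control range of 1.60 to 4.05. In the second, the highest differences were those of the same 4 members of the miR-200 family, and 8 of its 20 measured members also stand in the milk list of 32. The medians were higher against UT than against CD. For the list lowered in obese fat it was 0.55 for UL minus UT and 0.61 for WL minus UT, but -0.07 for UL minus CD and 0.11 for WL minus CD. The adipose-enriched list had 0.44 and 0.58 against 0.05 and 0.12, and the milk list 0.20 and 0.51 against -0.12 and 0.13. In the pools themselves, the mean level of the list lowered in obese fat was 1.63 to 2.20 in UT, 2.34 to 2.82 in CD and 2.47 to 2.95 in UL and WL.

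**Figure D4:**
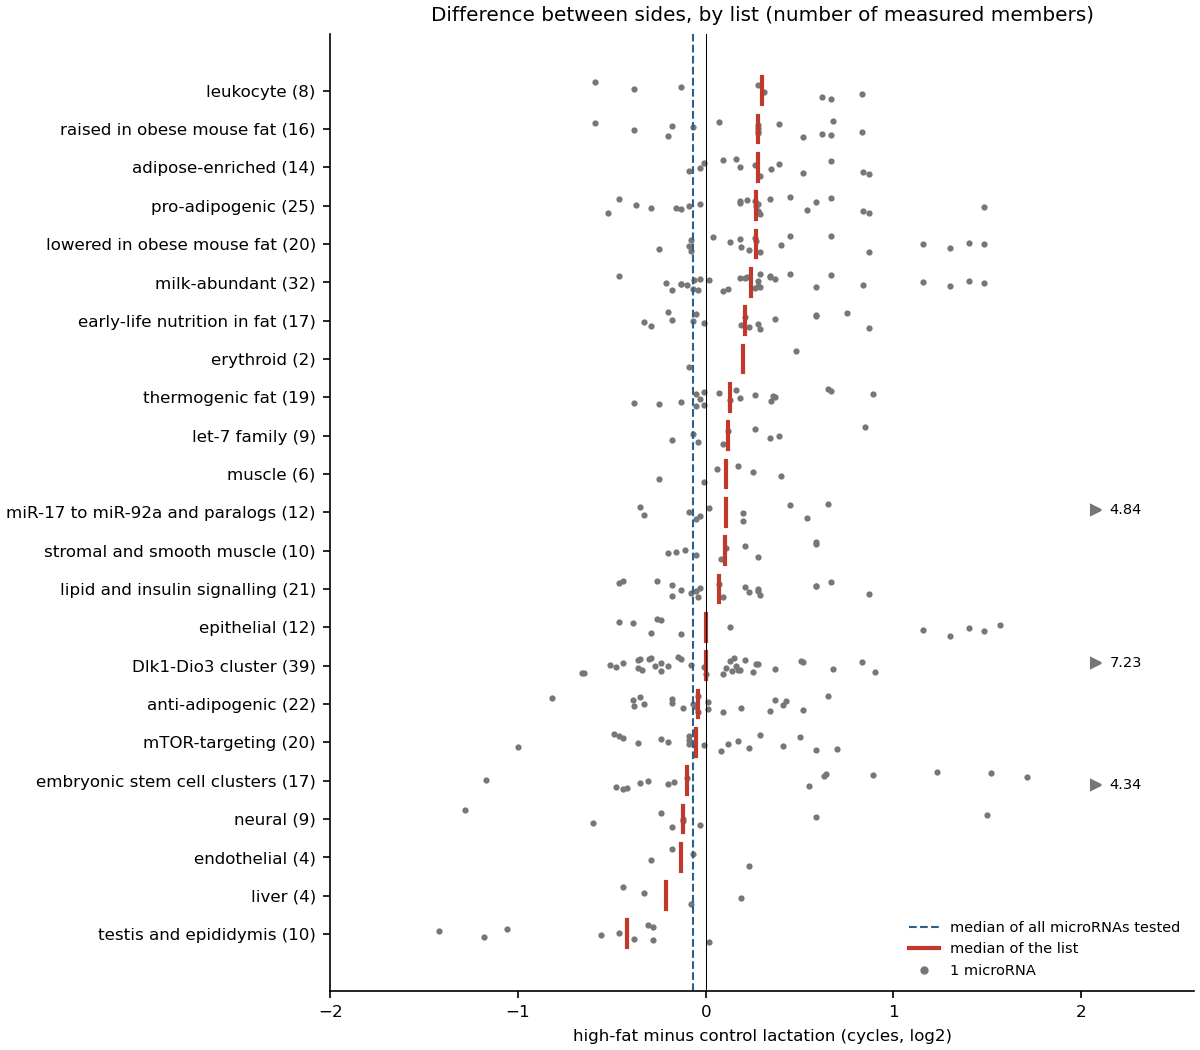
Difference between the sides (cycles, log2 scale) of each measured member of 23 lists, grey points, with the list median in red and the median of all 504 microRNAs as a dashed line at -0.07; arrows give the values of 3 members beyond the axis. Medians ranged from -0.42 (testis and epididymis) to 0.30 (leukocyte); scaled to RNU-43, those of the thermogenic, let-7, lipid and insulin, muscle, stromal and miR-17 lists lay below 0.

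Across 5 scalings the adipose-enriched list stayed 0.24 to 0.35 above the median of all microRNAs, the milk list 0.25 to 0.31, and the lists raised and lowered in obese fat 0.34 to 0.35 and 0.24 to 0.34. The mTOR-targeting list, named for the network in the title of the study, had a median of -0.05 with 9 of 20 above 0 and 0 called. Its leading members by level were miR-126a-3p (0.23, SE 0.33), miR-16-5p (0.12, SE 0.28) and miR-99a-5p (0.29, SE 0.23), the last a repressor of mTOR itself. The thermogenic list had 0.13 (11 of 19) and the lipid and insulin signalling list 0.07 (11 of 21), which scaling to RNU-43 took to -0.05 and -0.11. The early-life nutrition list had 0.21 (10 of 17). The let-7 family had 0.12 (6 of 9), and the family of miR-17, miR-92a and paralogs 0.11 (7 of 12); scaled to RNU-43 they had -0.06 and -0.07. The Dlk1-Dio3 list had 0.00 (19 of 39 above 0), with all members but miR-494 between -0.66 and 0.90.

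Markers of other cells in the fat pad were measured beside these. Leukocyte microRNAs had a median of 0.30 (5 of 8 above 0), with miR-142-5p at 0.62 and miR-342-3p at -0.59, and their mean level lay at 1.59 to 2.33 in the control pools. WL3 alone stood above, at 2.96, and the other 5 high-fat pools lay at 1.92 to 2.35. Epithelial microRNAs had a median of 0.00 (6 of 12). MiR-205-5p (1.57, SE 0.67) and the 4 members of the miR-200 family named above lay above 1, whereas miR-429, of the same family, had -0.24 (SE 0.58). MiR-203-3p had 0.13, and the other 5 lay at -0.46 (miR-375-3p) to -0.13 (miR-182-5p). Among these miR-31-5p had -0.39 (SE 0.83) through UT3 at 4.91, while its median level was 0.24 in the high-fat pools and -0.01 in the control pools. Their mean level lay at 1.27 to 2.57 in the high-fat pools, 0.95 to 2.72 in CD and 0.26 to 1.10 in UT. For miR-205-5p UL minus UT was 2.68 and UL minus CD -0.12. The epididymis, an epithelial organ, adjoins this pad; the part of these markers in the results was not tested.

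Testis and epididymis microRNAs had the lowest median of all lists, -0.42, with 1 of 10 measured members above 0 and 0 called. MiR-471 had -1.42, miR-463 -1.18 (SE 0.50) and miR-741-3p -1.06, and the member with the highest level, miR-742-3p, -0.28 (SE 0.30). The mean level of the list was -0.04 and -0.08 in UT1 and UT2 and -0.76 in CD2; the other 3 control pools lay at -1.75 to -1.41, within the range of the high-fat pools, -2.05 to -1.26. Under each of the 5 scalings the median stayed 0.35 to 0.36 below that of all microRNAs. Muscle microRNAs had a median of 0.11 (4 of 6 above 0) and stromal and smooth muscle 0.10 (6 of 10), which became -0.07 and -0.09 when scaled to RNU-43. The other marker lists were erythroid 0.20 (1 of 2), neural -0.12 (2 of 9), endothelial -0.13 (1 of 4) and liver -0.21 (1 of 4), with 0 called in each. No marker list held a call, where limma called 0.397% of all microRNAs, so this is no result about the markers. At an unadjusted p under 0.05 limma listed 3 epithelial members higher and 2 testis and epididymis members lower. It also listed 1 leukocyte member in each direction and 1 neural member higher, and 0 in the other marker lists. Over all microRNAs the shares were 4.37% higher and 3.97% lower.

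**Figure D5:**
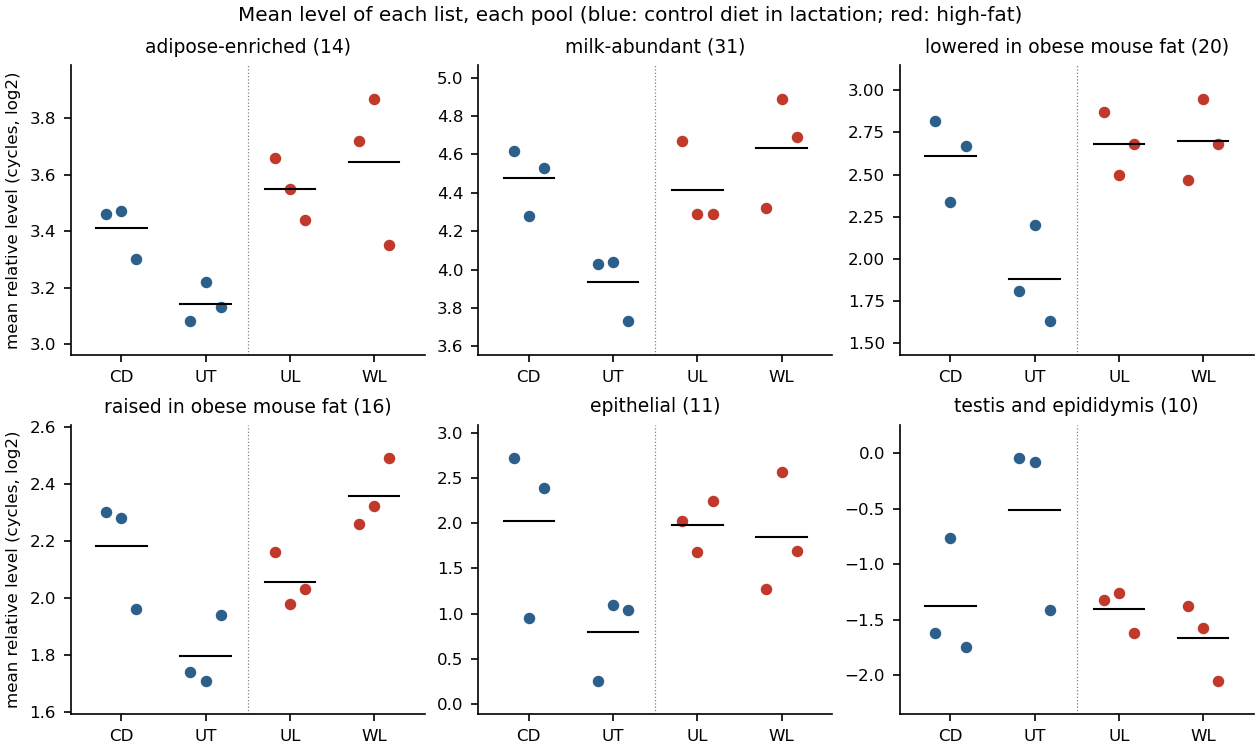
Mean relative level (cycles, log2 scale) of 6 lists in each pool, over members measured in all 12 pools (number in brackets); lines are group means of 3 pools. UT pools lie lowest in the adipose-enriched, milk-abundant, raised and lowered lists on average, and UT1 and UT2 lie highest in the testis and epididymis list.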

How the data were processed

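Total RNA of epididymal fat pads was profiled by RT-PCR, per the labels and file headers, in 12 pooled samples of 4 groups. The authors deposited Ct values before normalization, which were tested here; 507 listed assays held 1 repeat, 504 microRNAs and 2 reference RNAs, with Ct from 15.05 to 37.04. The deposited normalized values, ratios per the file headers, differ from the Ct by a constant within each sample (to 0.01 on the log2 scale) and grow with Ct; turned in sign, they served as an alternative. PCR platform and threshold rule: not given in the sources used here.

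Levels were fitted with limma 3.58.1 (R 4.3.3) as 4 group means over 12 pools, two-sided, with Benjamini-Hochberg adjustment over 504 microRNAs. A filter (Ct under 35 in at least 3 pools) removed 0. MiR-291b-5p and miR-20b-5p, with a Ct in 2 control pools each, met it only through the high-fat side. The prior degrees of freedom were 3.36. Missing values were left missing. The script was tested on simulated data. Exact permutation tests enumerated 924 splits.

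Named were the calls, filled up to 24 by unadjusted p, microRNAs whose sides did not overlap, 3 members a list by highest level, and the reference RNAs; other names were chosen after their values were seen. The microRNAs and the 23 lists (380 entries, 31 without an assay) were chosen with earlier results of these data known. Entries were matched by name, also to assays named without an arm. The alternatives were other scalings, imputed or incomplete assays, priors, pool weights, a replicate block, neighbouring assays subtracted, 2 exchanged pairs of assays and each pool left out.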

Additional observations from a re-analysis of the deposited data

Results flagged for a closer look

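Within each side of the comparison, the pools of every named microRNA and reference RNA were checked for 1 pool far from the others by Dixon's ratio. This picked out 13 of 148 sets of pools. The usual rate of about 1 in 20 holds for independent samples of 1 population. Here each set joined 2 diet groups, and the microRNAs were partly chosen by their values, so that rate is no benchmark. WL3 accounted for 5, WL1 for 3, CD3 and UT2 for 2 each and UT3 for 1.

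The low values of WL3 were -2.59 for miR-17-3p, -2.13 for miR-351-5p, 3.74 for miR-365-2-5p and 2.87 for miR-291a-5p, and its high value was 1.04 for miR-676-3p. For miR-17-3p, miR-351-5p and miR-676-3p this is the pool without which limma called a difference. WL1 was high for miR-16-5p (8.01) and low for miR-181a-5p (3.25) and miR-129-5p (0.32). CD3 was low for miR-135b-3p (-11.80, the value behind that call) and for miR-26b-5p (5.52). UT2 was low for miR-92a-3p (3.20) and miR-29a-3p (5.07), and UT3 was high for miR-21a-5p (8.51). The causes were not tested.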

How the results depend on the processing

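Of 504 microRNAs, 2 passed for the comparison of the sides. The count was 0 among microRNAs measured in all 12 pools (limma; 38 with an unadjusted p under 0.05), 0 with each side fitted as 1 group (25) and 0 by the exact permutation test (30); it was 1 with mean Ct under 30 only, with a trended and robust prior and with neighbours in table order subtracted. Leaving out each pool in turn gave 1 (without CD3 or UT3) to 10 (without WL3). Settings chosen after seeing the data gave 9 without UT2 and WL3, and 5 without WL3 with the pairs of assays exchanged. For UL minus UT the count of 0 became 4 with RNU-43 scaling, 7 with array weights, 1 with the replicate block, 11 without UT2 and WL3, 1 without WL3 with the pairs exchanged, and 0 to 8 leaving out each pool (1 without CD1 or UL1, 4 without WL2, 8 without WL3). Replicate numbers did not pair the pools (same-numbered pools correlated at a median of 0.04, from -0.27 to 0.26); with the replicate block the sides kept a count of 2. Full separation gave 2 microRNAs, 1 with median or quantile scaling and 0 with RNU-43 or the deposited values. Subtracting neighbours took miR-692 to 0.02 (table order) and 0.00 (accession order), and miR-184-5p to 0.00 (accession order). MiR-291b-5p could not be fitted without CD1 or UT3, nor miR-135b-3p without CD3, and complete assays leave out both, so their calls were not tested without those single values. Other causes were not tested. Late Ct limits both, at 35.92 and 36.69 in CD. MiR-20b-5p, which passed in some of these settings, could not be fitted without CD1 or UT3 either.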
